A study of Mus musculus with 8 samples.

Results

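The core circadian clock genes were examined in brown adipose tissue (BAT), the thermogenic fat depot. The 10 genes Arntl, Clock, Per1, Per2, Per3, Cry1, Cry2, Nr1d1, Nr1d2 and Dbp were chosen by name as the core of the known clock loop, and all 10 were found among the 31053 genes of the count table. Bulk RNA-seq had been performed on 4 WT and 4 Cd36KO libraries from C57BL6/J mice labelled as 8 weeks old. The Cd36KO label names no Cre driver, but the study attributes its BAT transcriptome to mice with floxed Cd36 and Csf1r-Cre, in which the gene is lost in macrophages and other myeloid cells and kept in adipocytes, and its methods give an older age at sacrifice for that line. Per the study's methods the mice lived on an inverted light cycle and tissues were harvested after a fast, and the clock time at which each mouse was killed is not given in the sources used here. The question was whether the phase relations among the clock transcripts set the libraries or the genotypes apart.

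The mammalian clock is a transcriptional loop. CLOCK and ARNTL (also called BMAL1) bind E-box sequences and switch on the Per, Cry, Nr1d1, Nr1d2 and Dbp genes, PER and CRY proteins then inhibit CLOCK and ARNTL, and the nuclear receptors NR1D1 and NR1D2 (REV-ERB alpha and beta) repress Arntl through elements that they share with the ROR receptors. As a consequence Arntl and its relative Npas2 rise and fall nearly opposite to Nr1d1, Nr1d2, Dbp and Per3 in mouse tissues, Per1 and Per2 peak later than Dbp, Cry1 is delayed further, and Clock itself cycles weakly. In brown fat the loop is known to gate thermogenic genes, and Nr1d1 is a known repressor of Ucp1.

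The promoters of several of these genes hold letters that match elements of the clock loop. RefSeq promoter windows on GRCm38.p6, from 250 bases before to 50 after each transcription start, were found for 9 of the 10 genes (all but Per2), 13 windows in all since some genes have several starts, and searched on both strands for the E-box CACGTG, for the D-box TTATGTAA or TTACGTAA that DBP binds, and for a form of the ROR and REV-ERB element (RORE) that reads A, any 2 bases and TAGGTCA. An E-box was present in 2 of the 13 windows (Per1 and Cry1), against 7.15% of all 32851 windows, a D-box in 1 (Per3), against 1.06%, and the ROR element in 1 (Arntl), against 0.7%. The Per1 window belongs to a RefSeq start that lies inside the gene as bounded by the annotation used for the counts below. The sites are shown, 5′ to 3′ on the strand of the gene with the motif in capitals. They are matches of letters only, and binding was not measured.
Per1 E-box, chr11:69098771-69098800, plus strand: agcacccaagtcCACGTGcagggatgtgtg
Cry1 E-box, chr10:85185097-85185126, minus strand: ggtgccggtggtCACGTGgggtgcatgccg
Per3 first D-box, chr4:151044852-151044881, minus strand: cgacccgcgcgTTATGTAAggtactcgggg
Per3 second D-box, chr4:151044805-151044834, minus strand: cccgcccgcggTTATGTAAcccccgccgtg
Arntl ROR element, chr7:113207528-113207557, plus strand: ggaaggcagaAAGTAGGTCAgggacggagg
Where no match was found, only these letters are lacking from these windows. Per3 carried its D-boxes 205 and 158 bases before its start, whereas the element of Arntl began 28 bases after 1 of its 2 RefSeq starts.

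Total counts ranged from 2679785 to 4097953 per library. Cd36, the targeted gene, ranged from 2412 to 3505 normalized counts (counts divided by the DESeq2 size factor) in WT and from 1926 to 2384 in Cd36KO, so that the groups did not overlap and the transcript remained in each library, but the log2 fold change of -0.48 did not pass (DESeq2 adjusted p = 0.0602, edgeR adjusted p = 0.191). The labels name a stromal vascular fraction as well as BAT, but the adipocyte transcripts Ucp1 (4235 to 12313 normalized counts), Adipoq and Plin1 were high in all 8 libraries. The study used male mice, whereas Xist had 772 to 1588 counts in every library and the Y-linked Uty, Kdm5d and Eif2s3y had 0 (Ddx3y had 3 counts in WT replicate 1 and 0 elsewhere). WT replicate 1 stood apart, with 43248 summed normalized counts of 9 skeletal muscle genes against 486 to 9068 in the other WT libraries. For 1 Cd36KO library the name of its counts lacks a replicate number, and it is called the unnumbered library. The study describes separate mice, as many in each group as there are libraries here, although the labels do not tie a library to an animal.

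Arntl (ENSMUSG00000055116, chromosome 7, 113207465 to 113314126, plus strand), the transcription factor at the head of the loop, was almost undetectable. Its raw counts were 6, 1, 0 and 0 in WT replicates 1 to 4, 0 in the unnumbered Cd36KO library, and 5, 4 and 6 in Cd36KO replicates 2, 3 and 4. No library exceeded 1.98 CPM (counts scaled to library total), and the 3 libraries at 0 allow up to 1.10, 0.869 and 0.986 CPM (3 counts of the total, counting error only). Group values below are means ± SD of 4 libraries. Npas2, the relative that cycles with Arntl, had 1 count in the unnumbered library and 0 in the other 7. At this depth no difference between genotypes was detectable in either gene, and no fold change is given. The genes known to peak opposite to Arntl were detected in all 8 libraries, with 173 to 450 raw counts of Nr1d1, 219 to 421 of Nr1d2, 138 to 227 of Per3 and 70 to 275 of Dbp. Clock, the partner of ARNTL, had 105 to 229 raw counts. Levels of different genes without a reference time course do not give a phase.

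Between genotypes, 9 of the 10 clock genes, all but Arntl, had an adjusted p. None of these 9 passed the DESeq2 threshold (adjusted p under 0.05 over all genes). The background was 2.95% of the 9617 genes with an adjusted p (1.42% higher and 1.53% lower in Cd36KO). The edgeR quasi-likelihood test called 0 of the 9 as well, against a background of 0.143% (0.0408% higher and 0.102% lower). An unadjusted DESeq2 p under 0.05 was given to 2 of the 10, Per2 and Dbp, where 9.76% of all genes had one. A filter on low counts (filterByExpr) was passed by 9 of the 10, all but Arntl. The median log2 fold change of these 9 was -0.18, beside -0.01 over the 9793 genes that passed.

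**Figure D1:**
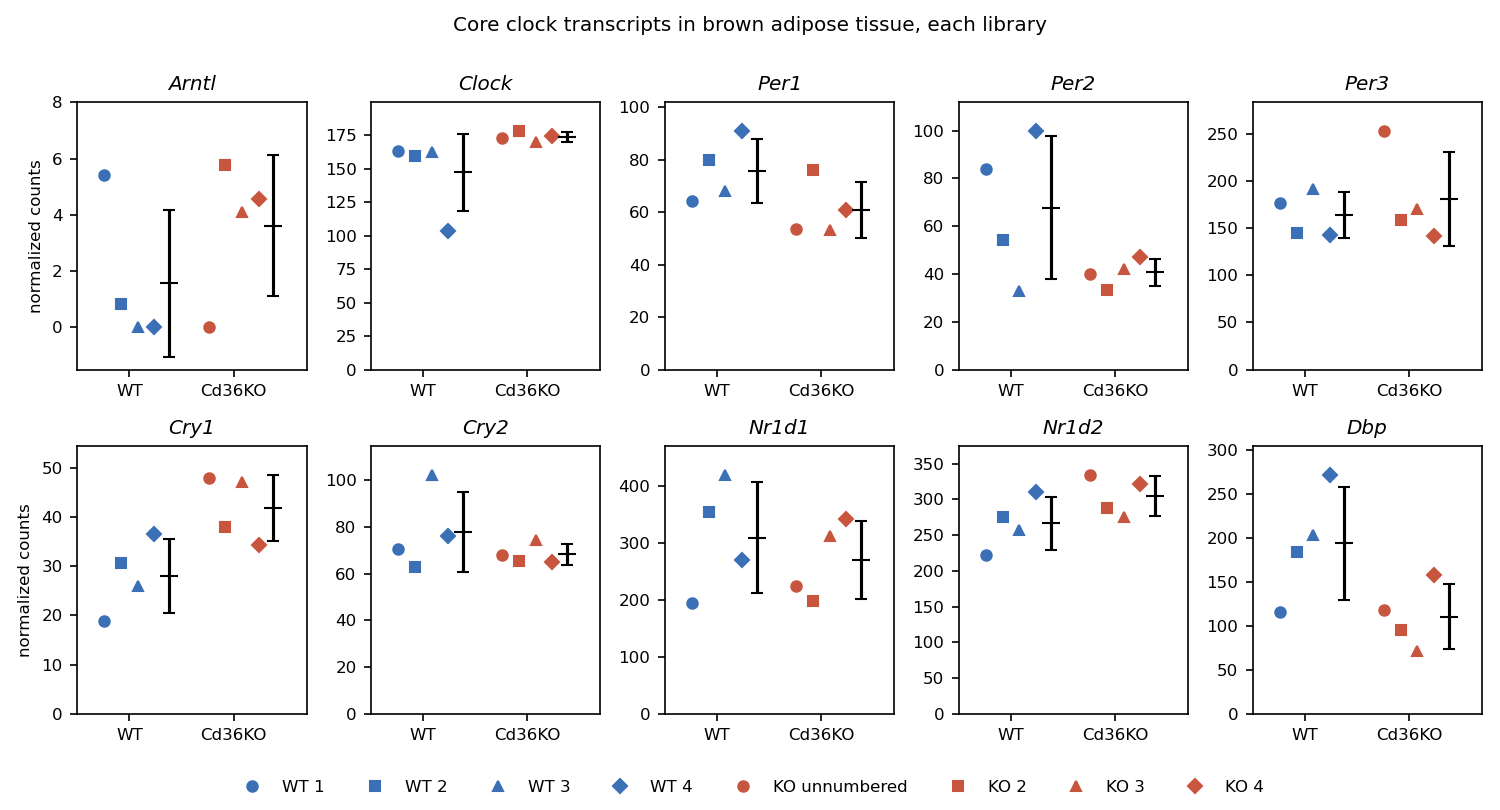
Normalized counts of the 10 core clock genes (y axis, linear and different for each gene) in the 4 WT (blue) and 4 Cd36KO (red, KO in the legend) libraries, with the mean and SD of each group in black. Arntl stays under 6 normalized counts in every library, Dbp is lower in most Cd36KO libraries with overlap, and all 4 WT libraries lie below the Cd36KO libraries in Clock, WT replicate 4 farthest.

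Dbp (ENSMUSG00000059824, chromosome 7, 45705088 to 45710203, plus strand), a PAR bZIP factor that drives the D-box output genes, had the largest fold change among the 9 with all libraries in the fit. This order did not hold without WT replicate 2 (Per2 and Dbp both -0.83), WT replicate 3 (Per2 -0.95, Dbp -0.78), WT replicate 4 (Cry1 0.73, Dbp -0.60) or Cd36KO replicate 3 (Per2 -0.75, Dbp -0.64). It was measured at 116, 184, 203 and 272 normalized counts in WT replicates 1 to 4, at 118 in the unnumbered Cd36KO library, and at 96, 71.6 and 158 in Cd36KO replicates 2, 3 and 4. WT replicate 1 lay within the Cd36KO range, and the other WT libraries lay above all Cd36KO libraries. The means were 194 ± 64.0 (WT) and 111 ± 36.7 (Cd36KO), and the log2 fold change was -0.80 with a 95% interval from -1.38 to -0.22. This did not pass (DESeq2 adjusted p = 0.118, edgeR adjusted p = 0.172), and the exact two-sided permutation p over libraries was 0.0857. The call depended on single libraries, since Dbp passed without WT replicate 1 (-0.98, DESeq2 adjusted p = 0.0112) and without Cd36KO replicate 4 (-1.03, DESeq2 adjusted p = 0.0441). WT replicate 1 was also the lowest WT library in 6 summed white fat genes, at 571 normalized counts. The other WT libraries had 2588 to 3604 and the Cd36KO libraries 304 to 465. Nnat made up most of this sum in each WT library (377 in WT replicate 1 and 2143.5 to 3105.1 in the others). WT replicate 1 was the lowest WT library in Lep, Hoxc8 and Hoxc9 as well, but replicate 3 was the lowest in Aldh1a1. With a muscle gene score as covariate the log2 fold change of Dbp was -0.72 (DESeq2 adjusted p = 0.338), and the part of white fat in its values was not tested.

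The value of Dbp also rests on how reads were assigned at its 3′ end. The exons of Dbp share 539 bases (chromosome 7, 45709665 to 45710203) with those of Sphk2, a sphingosine kinase gene on the opposite strand, and whether the counting used strand is not stated. Sphk2, named after its values were seen, moved opposite to Dbp. It had 48.7, 76.4, 70.6 and 66.3 normalized counts in WT replicates 1 to 4, 163 in the unnumbered Cd36KO library, and 89.8, 97.2 and 108 in the other Cd36KO libraries. All Cd36KO values lay above all WT values, with a log2 fold change of 0.80 and a DESeq2 adjusted p of 0.063, which missed the threshold. The sum of both genes was 260 ± 71.4 in WT and 225 ± 56.2 in Cd36KO, and the groups overlapped. Without strand, reads from the shared exons cannot be told apart.

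**Figure D2:**
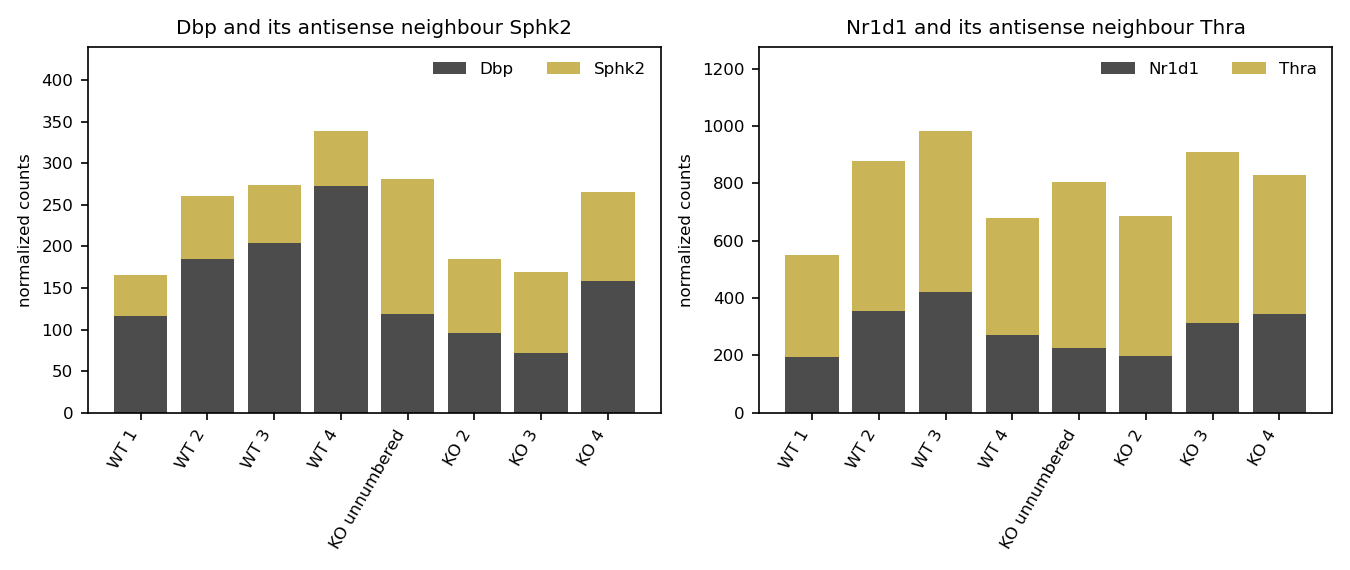
Stacked normalized counts (y axis) of Dbp and Sphk2 (left) and of Nr1d1 and Thra (right) in each library (x axis, KO for Cd36KO). Dbp takes the larger part of the left bars in every WT library and a smaller share in each Cd36KO library than in any WT library, while the summed bars of the groups overlap in both panels.

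The REV-ERB receptors, which repress Arntl, did not separate the genotypes. Nr1d1 (chromosome 11, 98767932 to 98775333, minus strand) was measured at 195, 354, 420 and 270 normalized counts in WT replicates 1 to 4, at 225 in the unnumbered Cd36KO library, and at 199, 312 and 343 in the others. The groups overlapped, and the log2 fold change of -0.20 had an interval from -0.71 to 0.31. Its size rested on single libraries, since it was -0.01 without WT replicate 3, -0.07 without Cd36KO replicate 2, -0.12 without WT replicate 2 or the unnumbered library, -0.33 without Cd36KO replicate 4 and -0.36 without WT replicate 1, and with the muscle score as covariate it was -0.45. Nr1d1 shares 263 exon bases with Thra, a thyroid hormone receptor gene on the opposite strand, whose log2 fold change was 0.22 (DESeq2 adjusted p = 0.627). Nr1d2 (chromosome 14, 18204054 to 18239127), which shares none, had 222 to 311 normalized counts in WT and 275 to 334 in Cd36KO, and a log2 fold change of 0.19 with an interval from -0.14 to 0.52 (0.11 without WT replicate 1). The 2 receptors thus differed in sign, and both intervals include no change.

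The period genes encode the repressors that accumulate toward the end of the cycle. Per2 (chromosome 1, 91415982 to 91459324) had 84.0, 54.4, 32.9 and 99.9 normalized counts in WT replicates 1 to 4, 40.1 in the unnumbered Cd36KO library, and 33.4, 41.9 and 47.3 in the others. WT replicates 1 and 4 were high, and WT replicate 3 lay below all Cd36KO libraries. The log2 fold change of -0.74 had an interval from -1.41 to -0.06, the DESeq2 adjusted p was 0.257 and the exact two-sided permutation p was 0.2. With the muscle score as covariate the log2 fold change of Per2 was -0.27 (DESeq2 adjusted p = 0.806), and without WT replicate 4 it was -0.49. Per1 (chromosome 11, 69095217 to 69109960) averaged 75.8 ± 12.1 (WT) and 60.9 ± 10.7 (Cd36KO), and its log2 fold change was -0.32 with an interval from -0.80 to 0.16. Per3 (chromosome 4, 151003652 to 151044665) had 142 to 192 normalized counts in WT and 142 to 253 in Cd36KO, where the unnumbered library was the highest. Its log2 fold change was 0.14, and it was -0.06 without that library, so that no direction can be given for Per3.

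The cryptochromes, which hold CLOCK and ARNTL in check, pointed in different directions. Cry1 (chromosome 10, 85131700 to 85185064) had 19.0, 30.6, 25.9 and 36.6 normalized counts in WT replicates 1 to 4, 47.9 in the unnumbered Cd36KO library, and 38.0, 47.1 and 34.3 in the others. Only WT replicate 4 reached the Cd36KO range. The log2 fold change was 0.57 with an interval from -0.06 to 1.21 (DESeq2 adjusted p = 0.39, exact two-sided permutation p = 0.0571). Cry2 (chromosome 2, 92403646 to 92434043) averaged 77.9 ± 17.1 (WT) and 68.3 ± 4.47 (Cd36KO). Its log2 fold change was -0.18 with an interval from -0.65 to 0.28 (-0.03 without WT replicate 3, and -0.37 with the muscle score as covariate). Cry2 shares 295 exon bases with D930015M05Rik, on the opposite strand and not in the count table. Without strand, reads from that gene cannot be told apart.

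Clock (chromosome 5, 76209868 to 76304792, minus strand), the acetyltransferase partner of ARNTL, was the only gene of the 10 whose groups did not overlap, where 10.9% of 5528 genes with a mean of at least 50 normalized counts had such groups. It had 163, 160, 162 and 104 normalized counts in WT replicates 1 to 4, 173 in the unnumbered Cd36KO library, and 178, 170 and 175 in the others. WT replicate 4 alone was far below the rest. The log2 fold change of 0.24 had an interval from -0.15 to 0.62 and did not pass (DESeq2 adjusted p = 0.611), although the exact two-sided permutation p was 0.0286, the smallest that 4 against 4 allows. Without WT replicate 4 the log2 fold change was 0.10.

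**Figure D3:**
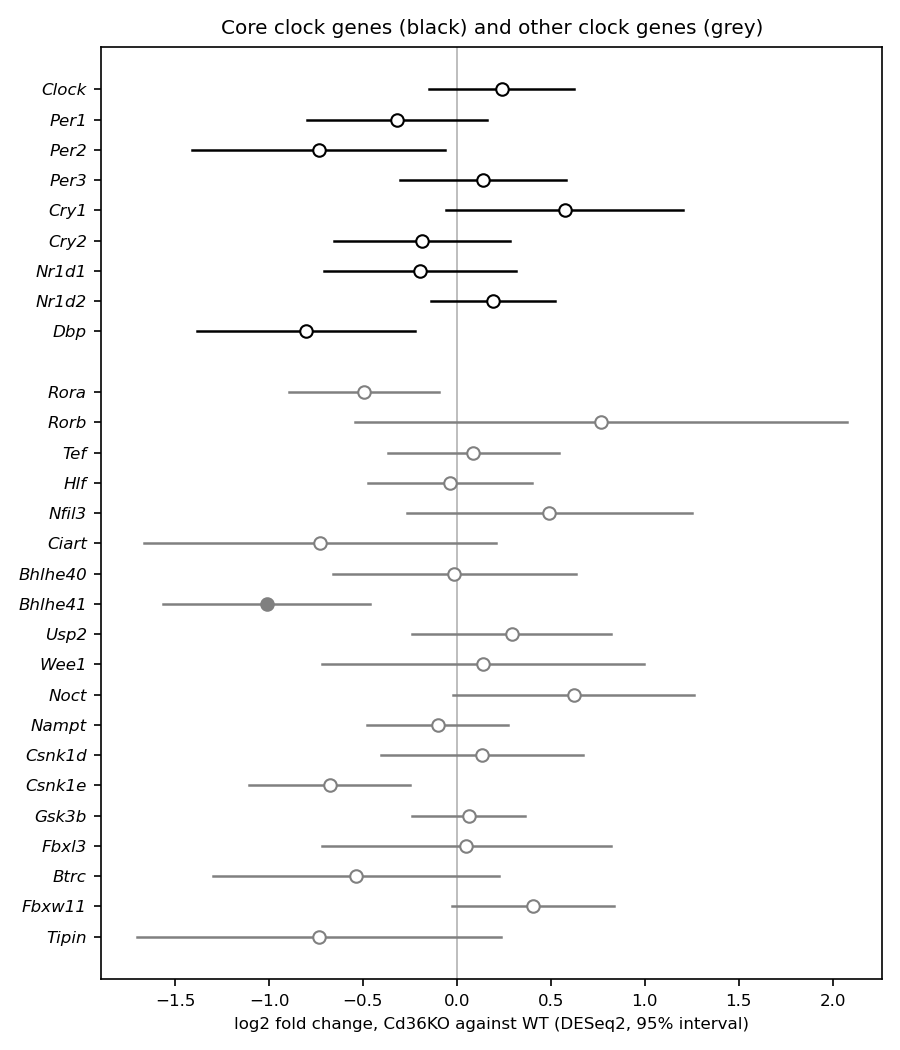
Log2 fold change of Cd36KO against WT (x axis, point) with its 95% interval (line) for the 9 core clock genes (black) and 19 of the 20 other clock genes (grey) that passed the low count filter. Filled points have a DESeq2 adjusted p under 0.05, which only Bhlhe41 reached.

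A phase index was formed for each library as the mean log2(normalized count + 1) of Dbp, Nr1d1, Nr1d2 and Per3 minus that of Arntl and Clock, so that it is higher where the first 4 genes are high relative to the other 2. The index was 2.42, 3.72, 4.32 and 4.55 in WT replicates 1 to 4. It was 4.05 in the unnumbered Cd36KO library, and 2.31, 2.62 and 2.84 in replicates 2, 3 and 4. WT replicates 2 to 4 and the unnumbered library thus formed the upper part and WT replicate 1 and Cd36KO replicates 2 to 4 the lower part, with each genotype in both. The group values of 3.75 ± 0.96 in WT and 2.96 ± 0.76 in Cd36KO differed by -0.80, less than the pooled SD of 0.86. The difference was -1.24 without WT replicate 1 and -0.53 without WT replicate 4. Arntl is itself subtracted in the index, so the index follows its counts by construction. These counts were 0 or 1 in the upper libraries and 4 to 6 in the lower ones.

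With Clock alone as the opposite gene, the index ran from 0.08 to 1.19 in WT and from -0.05 to 0.35 in Cd36KO. The difference of -0.43 exceeded its pooled SD of 0.35. The unnumbered library then moved to 0.33, within the range of the other Cd36KO libraries, while the other 7 libraries kept their order and WT replicate 1 stayed low at 0.08. WT replicate 4 was highest at 1.19, the library with the highest Dbp and the lowest Clock. With Tef, Hlf and Ciart added on the Dbp side and Npas2, Nfil3 and Cry1 on the other, the 4 Cd36KO libraries lay between 3.14 and 3.41, WT replicate 1 lay among them at 3.17, and the other WT libraries lay between 3.99 and 4.32. That difference, -0.68, exceeded its pooled SD of 0.38. Thus 3 WT libraries were above all Cd36KO libraries in both of these other versions. In the summed white fat genes given above, WT replicate 1 was also nearest to the Cd36KO range. There, however, all WT libraries lay above all Cd36KO libraries (at least 571 against at most 465). The part of these genes in the index was not tested. These are descriptions without a test, and since no clock time is given, a difference in collection time and one in clock gene level cannot be told apart.

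**Figure D4:**
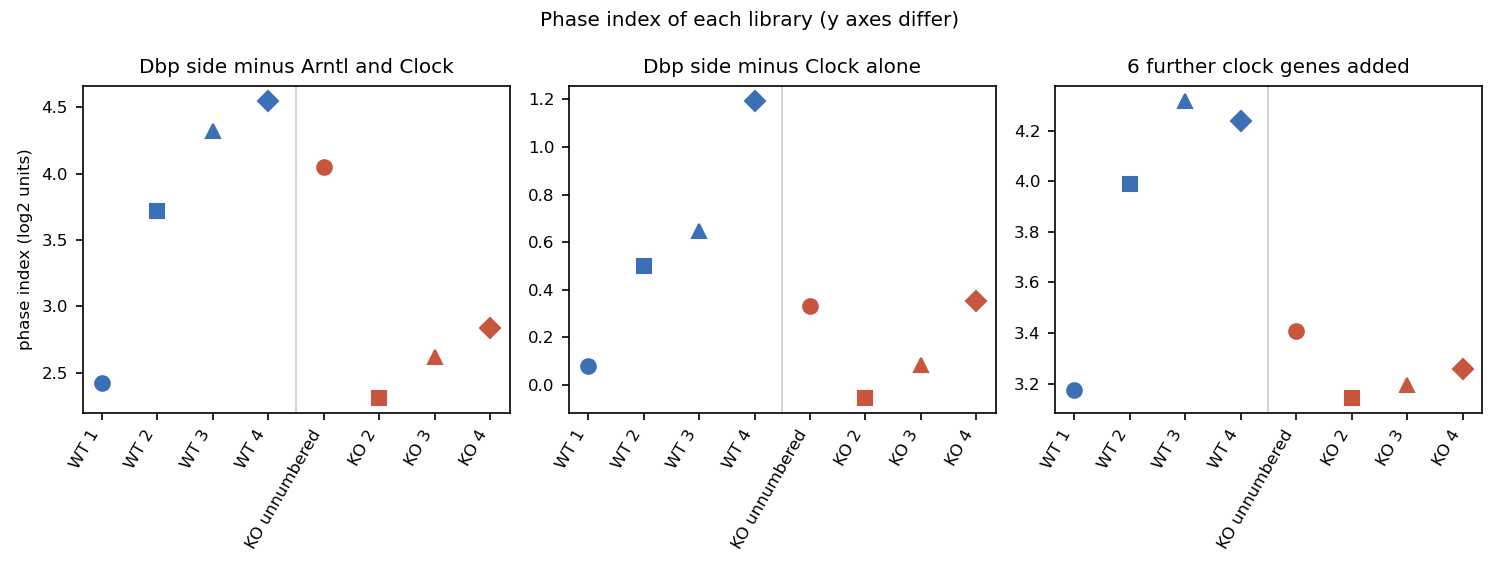
Phase index (y axis, log2 units, different scale in each panel) of each library (x axis, KO for Cd36KO) for the index with Arntl and Clock (left), with Clock alone (middle) and with 6 further clock genes (right). The unnumbered Cd36KO library lies at 4.05 on the left, within the range of the other Cd36KO libraries in the middle, and above them at 3.41 on the right. WT replicate 1 lies at the Cd36KO level in all panels.

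If libraries differed in phase, genes of opposite phase would vary inversely across them. Correlations were computed over the 8 libraries for 6 pairs, on log2(normalized count + 1), with exact permutation p-values adjusted over the 6 pairs. Arntl and Dbp had a Pearson r of -0.66 (exact p = 0.0719, adjusted p = 0.295) and a Spearman rho of -0.68 (exact p = 0.075, adjusted p = 0.341). Without WT replicates 3 and 4, which tied with the unnumbered library at 0 counts of Arntl as the farthest from its median, r was -0.36. Arntl and Nr1d1 had an r of -0.36 (exact permutation p = 0.363) and a rho of -0.49 (exact permutation p = 0.227). Arntl and Clock had an r of 0.51 (exact permutation p = 0.0984) and a rho of 0.61 (exact permutation p = 0.122). None of these 3 pairs passed, and all rest on 0 to 6 counts of Arntl.

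Dbp and Nr1d1 had an r of 0.44 (exact permutation p = 0.278) and a rho of 0.52 (exact permutation p = 0.197). Without WT replicate 4 and Cd36KO replicate 3, the 2 libraries farthest from the median of Dbp, r was 0.96. The 6 libraries left were thus picked by the values of Dbp, and no p is given for them. Dbp and Per3 varied the other way, with an r of -0.31 (exact permutation p = 0.46) and a rho of -0.26 (exact permutation p = 0.536). Per1 and Per2 had an r of 0.44 (exact permutation p = 0.272) and a rho of 0.33 (exact permutation p = 0.428), and an r of -0.06 without the same 2 libraries. On deviations from the group means, r was -0.30 for Arntl and Nr1d1, -0.57 for Arntl and Dbp, 0.36 for Arntl and Clock, 0.39 for Dbp and Nr1d1, -0.23 for Dbp and Per3 and 0.14 for Per1 and Per2. The lowest adjusted p of the 6 pairs was 0.295 for r and 0.341 for rho.

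The spread of the clock genes within groups was not uniformly wide. The SD of log2(normalized count + 1) of Dbp was 0.51 in WT and 0.48 in Cd36KO and that of Nr1d1 0.48 and 0.37, beside medians of 0.30 and 0.24 over the 5528 genes with a mean of at least 50. Per2 had an SD of 0.70 in WT, the highest of the clock genes with such a mean, and less than the median in Cd36KO, at 0.20. Arntl, at 0 to 6 counts, had 1.26 and 1.28. Nr1d2 lay below the median in both groups, at 0.20 and 0.13, and Clock had 0.32 in WT and 0.03 in Cd36KO. Of the 8 clock genes with such a mean, 4 exceeded the median in WT and 3 in Cd36KO.

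Among 24 other genes of the clock, 19 had an adjusted p and only 1 was called by DESeq2, and it was lower in Cd36KO, against the background of 1.53% in that direction. The median log2 fold change of the 20 that passed the low count filter was 0.02. The called gene was Bhlhe41 (DEC2), a repressor that competes with CLOCK and ARNTL for E-boxes. Its exons share 1280 bases with Gm43909, on the opposite strand and not in the count table, so reads from that gene cannot be told apart without strand. Bhlhe41 had 57.8, 75.6, 78.8 and 102 normalized counts in WT replicates 1 to 4, 32.3 in the unnumbered Cd36KO library, and 51.8, 36.8 and 35.1 in the others. The means of 78.5 ± 18.1 (WT) and 39.0 ± 8.72 (Cd36KO) came from groups without overlap, with a log2 fold change of -1.01, an interval from -1.57 to -0.46 and a DESeq2 adjusted p of 0.0218. The edgeR test did not call it (adjusted p = 0.104), nor did DESeq2 without WT replicate 2 or 3 or without any one of the Cd36KO libraries. Its paralog Bhlhe40 (DEC1) had a log2 fold change of -0.01 with an interval from -0.66 to 0.63.

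Groups without overlap were found in 3 of the 24, beside the 10.9% of genes with a mean of at least 50, a mean that Ciart does not reach. Besides Bhlhe41 these were Csnk1e and Ciart, both lower in Cd36KO, which did not pass. Csnk1e, a casein kinase that marks PER proteins for degradation, had 101, 124, 156 and 156 normalized counts in WT replicates 1 to 4, 79.1 in the unnumbered Cd36KO library, and 79.4, 91.0 and 85.4 in the others. Its log2 fold change was -0.68 (DESeq2 adjusted p = 0.06). Among the alternatives it passed only with at least 10 counts required in 4 libraries and without WT replicate 1. The other casein kinase, Csnk1d, had a log2 fold change of 0.13. Ciart, a repressor that is a direct E-box target, had 12.9 to 18.7 normalized counts in WT and 6.90 to 10.2 in Cd36KO, a log2 fold change of -0.73 (DESeq2 adjusted p = 0.491). Rora, which activates Arntl, had a log2 fold change of -0.49 (interval from -0.89 to -0.09) and did not pass (DESeq2 adjusted p = 0.181). Tef and Hlf, which are PAR bZIP factors like Dbp, had log2 fold changes of 0.09 and -0.04 with intervals from -0.37 to 0.55 and from -0.47 to 0.40. Whether Dbp, at -0.80, differs from them was not tested. Arntl2 (1 to 9 raw counts), Fbxl21 (0 to 4) and Timeless (2 to 17) failed the low count filter, as did Npas2.

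The genes whose library pattern was most like that of Dbp were not clock genes. On deviations from the group means over the 8 libraries, among 5527 genes with a mean of at least 50, the highest Pearson r with Dbp were those of Prrg2 (0.97), Slc2a5 (0.97), Mlf2 (0.96), Acaca (0.96) and Tsc2 (0.96). The lowest were those of Aqr (-0.98), Pwwp2a (-0.97), Fgd4 (-0.97), Dgkh (-0.96) and Klf7 (-0.96). The clock gene most like Dbp was Nr1d2 (r = 0.89, rank 86), followed by Fbxw11 (0.77, rank 430) and Tef (0.75, rank 499), whereas Nr1d1 had rank 1907. The highest with Arntl were Nrp1 (0.99), Diaph1 (0.98), Brd3 (0.97), Patl1 (0.96) and Srgn (0.96). The clock genes most opposite to Arntl were Tef (r = -0.87, rank 5335 of 5528) and Nr1d2 (-0.75, rank 4882). These values share depth and composition of the same libraries and are given without a test.

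Handling, hormones, temperature and feeding can shift clock transcripts, and genes that respond to them were listed beside the clock genes. Of 9 immediate early genes, 5 had an adjusted p and 1 of these passed, against the background of 1.53% for lower calls. It was Dusp1, a phosphatase, at 56.2 ± 21.8 normalized counts in WT against 20.7 ± 5.86 in libraries labelled Cd36KO (log2 fold change -1.44, DESeq2 adjusted p = 0.0157, edgeR adjusted p = 0.11), and edgeR called 0. The sum of the list was 283 to 320 in WT and 190 to 236 in Cd36KO, a difference carried by Dusp1 and Jun (means 156 and 101, DESeq2 adjusted p = 0.22), while Junb and Egr1 had log2 fold changes of 0.15 and 0.22 and the median of the 5 that passed the filter was -0.06. None of 6 glucocorticoid-responsive genes passed, with 2 at an unadjusted DESeq2 p under 0.05 (9.76% of all genes) and 0 called by edgeR, and their median log2 fold change was -0.64. Tsc22d3 among them lay lower in every Cd36KO library (log2 fold change -0.56, DESeq2 adjusted p = 0.091), Fkbp5, Sgk1 and Zbtb16 had log2 fold changes of -0.73, -0.74 and -0.76, and Mt1 and Mt2 of 0.47 and 0.16. Of 7 temperature-responsive genes 5 had an adjusted p, and of 4 fasting-responsive genes 3 had one, and none of these passed. No gene of either list had an unadjusted DESeq2 p under 0.05, and edgeR called 0. The summed counts of both lists overlapped between groups. The part of these signals in the clock values was not tested.

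The cell type markers moved unevenly with the groups. The 9 brown adipocyte genes summed to 23105 to 32142 normalized counts in WT and 36870 to 46035 in Cd36KO, and 4 of them (Ucp1, Cidea, Cox7a1 and Cox8b) were called higher by DESeq2, against the background of 1.42% in that direction, and 0 by edgeR. Adipoq and Plin1 of the same list had log2 fold changes of -0.27 and -0.45 and did not pass, and the median of the 9 was 0.59. Of 6 white fat genes, 4 had an adjusted p and all of these (Lep, Hoxc8, Aldh1a1 and Nnat) were called lower by DESeq2 and by edgeR, against backgrounds of 1.53% and 0.102%, and Hoxc10 was at 0 in all libraries. The 9 muscle genes ranged from 486 to 43248 in WT and from 32.7 to 5634 in Cd36KO, with 0 called. The sums of 8 macrophage genes overlapped (524 to 828 in WT, 594 to 904 in Cd36KO). Those of 4 endothelial genes did as well (625 to 976 in WT, 709 to 1026 in Cd36KO). None of the 7 macrophage genes with an adjusted p and none of the endothelial genes was called. Of 4 adipose stromal genes, 1 (Dpt) was called lower by DESeq2 and by edgeR, against the same backgrounds, and their sum was 966 to 1205 in WT and 715 to 872 in Cd36KO. In bulk tissue, fewer cells of a type and less RNA per cell cannot be told apart, and the part of cell composition in the clock values was not tested.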

How the data were processed

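The authors' methods name bbduk for trimming of the single-end reads, STAR for alignment to mm10 and HTSeq-count for gene counts, but their list of software and the submitters' processing notes also name Trimmomatic and HISAT2, and which tools made these files is not settled by the sources used here. DESeq2 is named in both. The deposited counts are whole numbers per gene, not normalized. The deposited log2 values equal log2 of the count over the size factor plus 1 (checked) and were used for 1 alternative. Strand setting and molecular identifiers are not stated, and floors on counts of 0 cover counting error only. GENCODE M21 (GRCm38) gave symbols for 31011 of 31053 identifiers, and 17367 had any count.

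All genes were fitted with DESeq2 1.42.0 (genotype only, default filtering; R 4.3.3), the tool the study names, with adjustment by Benjamini-Hochberg and a threshold of 0.05. Intervals are 95% Wald intervals. Alternatives used edgeR 4.0.16 and limma 3.58.1. Exact two-sided permutation tests ran over 70 arrangements, with a smallest p of 0.0286. Functions were tested on simulated data. No 2 libraries of a group agreed within sampling noise (chi-square per degree of freedom at least 6.43). The 10 genes were chosen by name and the lists by function, both with earlier results of these data known. Named genes are the 10 clock genes, Cd36, the 24 other clock genes, called genes of the response lists and the genes most like Dbp or Arntl, and other names were added after values were seen. The values of 1 further clock gene are not reported here. SciPy 1.17.1 and matplotlib 3.10.9 were used.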

Additional observations from a re-analysis of the deposited data

Results flagged for a closer look

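A library lay far from the others of its group in 2 of 22 groups tested, where chance flags about 1 in 20, or 1.1. The first was Clock in WT, where replicate 4 had a log2(normalized count + 1) of 6.71 against 7.33 to 7.36 in the other WT libraries. The second was Arntl in Cd36KO, where the unnumbered library was at 0.00 against 2.35 to 2.76 in the others, which corresponds to 0 raw counts against 4 to 6.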

How the results depend on the processing

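The number of core clock genes called was 0 and stayed 0 with edgeR, TMM factors, at least 10 counts required in 4 libraries, no independent filtering, the muscle score as covariate and limma on the deposited log2 values. It was 1 (Dbp) in the 6 numbered libraries, both with the replicate block and unpaired, and ranged from 0 to 1 when each of the 8 libraries was dropped. Under the replicate block Dbp had a log2 fold change of -1.07 (DESeq2 adjusted p = 0.0118), and unpaired -1.01. Over its 16 alternatives the adjusted p of Dbp from DESeq2, edgeR or limma ran from 0.0112 to 0.338, with 4 past the threshold. The 1 other clock gene called became 0 with edgeR, with limma and under the replicate block and 2 with the filter of 10 counts, and ranged from 0 to 3 when a library was left out. Per3 changed sign under the replicate block (-0.0152), unpaired (-0.0227) and without the unnumbered library (-0.0636), ranged from -0.0636 to 0.2429 when a library was left out, and no other core clock gene with a fold change did. The phase index difference ranged from -1.61 to -0.43 over its 18 alternatives and the 6 correlations stayed short of the threshold wherever tested, while r of Per1 and Per2 turned to -0.06 without 2 libraries. The cause of each change was not tested.

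It is not settled whether the replicate numbers pair the libraries, since 3 numbered pairs are too few to decide. The deviations of same-numbered libraries correlated at -0.13, 0.42 and 0.14, and 3 of 6 libraries correlated best with their own number. The block gave 221 genes over the whole table against 262 unpaired. DESeq2 with all libraries called 284, edgeR 14, limma 5, no independent filtering 171, the muscle covariate 186, and leaving out a library 70 to 498. At this depth Arntl had at most 6 counts and Npas2 at most 1 in a library.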
